A study of Mus musculus with 6 samples.

Results

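Amino acids enter, leave and move within cells through membrane carriers of several solute carrier families, and 6 of these families were followed here: Slc1a, Slc3a, Slc7a, Slc36a, Slc38a and Slc43a. Members were taken by gene symbol from the array annotation, which gave 42 transporter genes of 21996 named genes. The symbol pattern also matched 2 opposite-strand genes that are no transporters and are kept apart. The only measured value in the rule was the mean log2 intensity over all 6 arrays: a gene's probe set was chosen by the highest such mean, and the difference between groups played no part. Of the 42 genes, 40 had 1 probe set each, while Slc36a4 and Slc38a10 had several.

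The arrays were single-colour Affymetrix Mouse Gene ST arrays of total RNA from adipocytes made from C3H10T1/2, a mouse mesenchymal cell line that can form fat cells in culture. The first group, Zc3h10 shRNA, held 3 biological replicates given an adenovirus with a short hairpin RNA against Zc3h10, which encodes an RNA-binding protein with CCCH zinc fingers, under a U6 promoter. The second, scramble, held 3 biological replicates given the same kind of virus with a scrambled hairpin. All 6 cultures shared 9 days of differentiation and a 72 h exposure at a multiplicity of infection of 50, so the cells of both groups were infected. 1 hairpin, 1 cell line and 3 arrays a group limit what the comparison covers.

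Median intensities of the arrays were 15.6 to 16.1 over 33079 probe sets and no 2 arrays were identical. Zc3h10 itself had 25.2, 30.2 and 22.9 intensity units on the Zc3h10 shRNA arrays, against 25.9, 39.0 and 35.3 on the scramble arrays. The groups overlapped for this gene, and its log2 difference was −0.34 ± 0.17 (SE), short of the threshold with an adjusted p of 0.301 from limma. All 10 mature adipocyte markers had signal above background. They were also lower in the Zc3h10 shRNA cells, with a summed intensity of 10302 to 11105 on the Zc3h10 shRNA arrays, against 17974 to 20015 on the scramble arrays. Brown and beige markers summed to 480.4 to 601 with the Zc3h10 hairpin, against 1837 to 2262 with scramble, and 3 of 6 were lower. The other 3 did not pass, and 3 of the 6 lay within background. Of 9 progenitor and fibroblast markers 3 were higher and 1 was lower, and their sums were 6129 to 6433 on the Zc3h10 shRNA arrays and 4777 to 5416 on the scramble arrays. The 4 macrophage and 3 endothelial markers gave no calls, and 3 of the 4 and all 3 lay within background. Of all named genes, 5.51% passed as higher and 6.6% as lower, so an absence of calls in lists this small is no result. The adipocyte markers moved with the groups. The progenitor markers were mixed, with 5 of 9 not past the threshold, 3 within background and a median log2 difference of 0.12. Sums weigh the brightest genes most, and the part of either list in the transporter values was not tested.

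The families differ in what drives transport. Slc1a carriers use sodium and potassium gradients to take up glutamate and aspartate, or exchange small neutral amino acids. Slc7a light subunits work as exchangers bound to an Slc3a heavy subunit, while other Slc7a members carry cationic amino acids alone. Slc36a carriers are driven mostly by protons, Slc38a carriers mostly by sodium, and Slc43a carriers work by facilitated diffusion. In fat cells these carriers supply carbon and nitrogen for lipid synthesis and protein growth and feed the lysosomal signal that activates the mTORC1 kinase complex.

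In adipocytes given the Zc3h10 hairpin, 4 transporter genes were lower and 2 were higher. The proton-coupled carrier gene Slc36a2 was 4.47-fold lower and the glutamine exchanger gene Slc1a5 2.30-fold lower, followed by smaller falls of Slc38a6 and Slc43a3. The sodium-coupled neutral carrier gene Slc38a1 was 1.83-fold higher and the lysosomal glutamine carrier gene Slc38a7 1.28-fold higher. The other 36 genes did not pass, among them all of the Slc7a and Slc3a genes. A gene passed at an adjusted p under 0.05 from limma, with Benjamini-Hochberg adjustment over all 33079 probe sets. All log2 differences are Zc3h10 shRNA minus scramble on the log2 intensity scale and are given with the SE of that fit. In bulk RNA, fewer cells of a type and less RNA per cell cannot be told apart.

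The share of the transporter genes past the threshold was 14.3% (6 of 42), beside 12.1% of all named genes and 9.79% of all probe sets. By direction, 9.52% were lower, beside 6.6% of named genes, and 4.76% were higher, beside 5.51%. These shares are near the background, so the count as such is no result about the families. The groups did not overlap for 9 of the 42 genes (21.4%), beside 31.9% of named genes. The median log2 difference of the 42 genes was 0.01, the same to 2 decimals as the 0.01 of all named genes, with 21 genes on each side of 0. Signal was above background for 23 of the genes, where background means the signal of 1375 odorant (olfactory and vomeronasal) receptor genes, whose central 95% ended at a log2 intensity of 4.37. The other 19 lay within it in both groups, and a change of such a gene may not be measurable on these arrays.

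**Figure D1:**
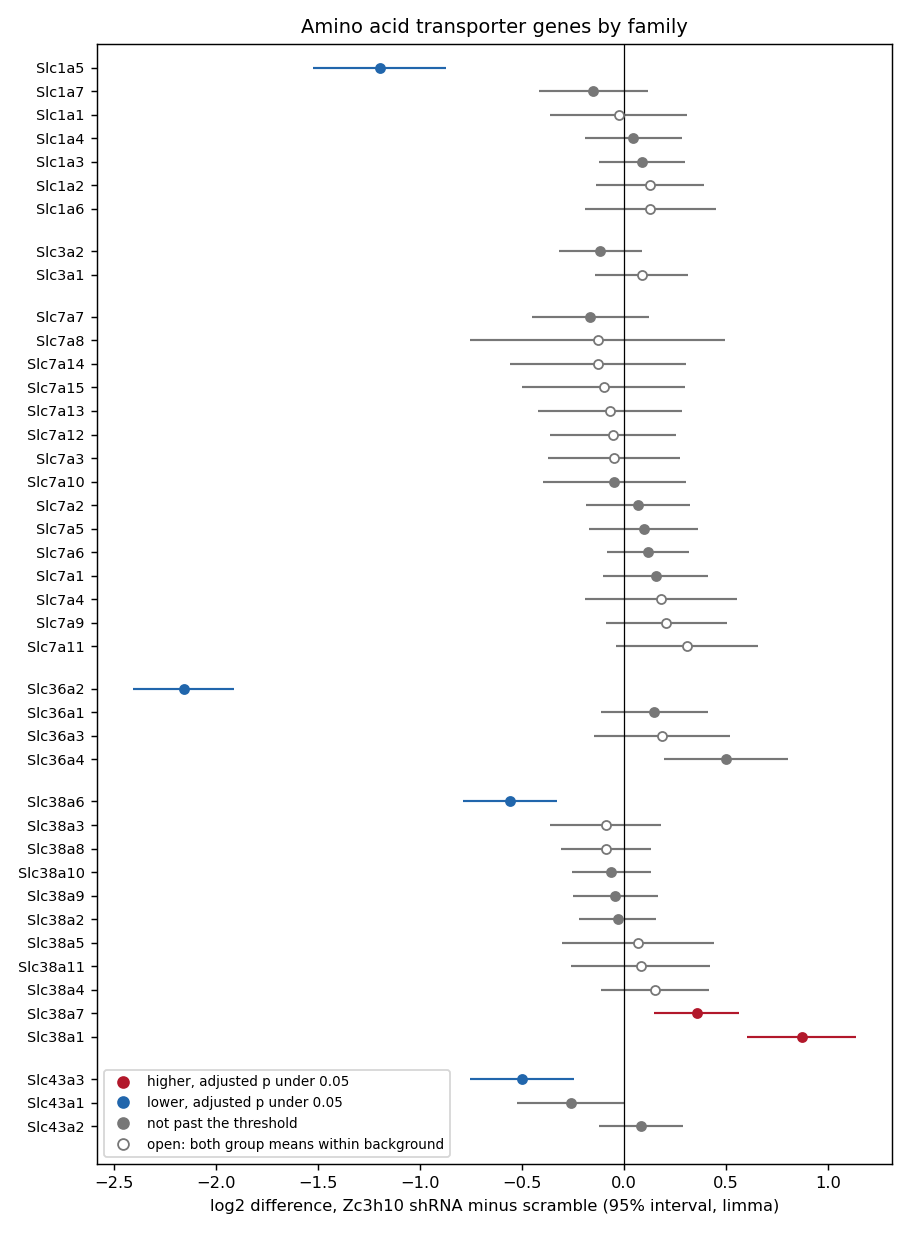
Log2 difference, Zc3h10 shRNA minus scramble, with its 95% interval from limma for each of the 42 transporter genes, ordered by difference within a family. Red points passed as higher, blue points passed as lower, grey points did not pass, and open points had both group means within background. Slc36a2 at −2.16 and Slc1a5 at −1.20 lie far to the left of their families, and Slc38a1 at 0.87 to the right of its family.

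Among the Slc36a genes, Slc36a2 encodes a proton-coupled carrier of glycine, alanine and proline that is known as a surface marker of brown and beige adipocytes. Its intensity was 60.7, 54.7 and 55.2 on the Zc3h10 shRNA arrays, against 225.7, 275.7 and 263.3 on the scramble arrays. Every Zc3h10 shRNA array lay far below every scramble array, and the group means were 56.9 ± 3.34 and 254.9 ± 26.1 (SD, n = 3 each). The log2 difference was −2.16 ± 0.11 (limma, adjusted p = 0.000549), which leaves 22.4% of the scramble level with a 95% interval of 18.9 to 26.5%. This fall was already known when the families were chosen, so it is a description of the family's leading member. The summed brown and beige markers above are lower on the same arrays, and so are all 10 mature adipocyte markers. A link of Slc36a2 to either list was not tested.

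The other Slc36a genes did not pass. Slc36a1, which encodes a lysosomal and plasma membrane carrier of small neutral amino acids, had 116.3, 140.6 and 108.4 intensity units with the Zc3h10 hairpin, against 105.2, 109.4 and 113.1 with scramble. Those groups overlapped, and the log2 difference was 0.15 ± 0.11 with a 95% interval of −0.12 to 0.41 (limma, adjusted p = 0.534). Slc36a3 lay within background at 0.19 ± 0.14.

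Slc36a4, a high-affinity carrier of proline and tryptophan, was read by a pair of probe sets that went opposite ways. Probe set 17514867, which stands for the gene by the rule, had 1143, 857 and 1171 intensity units on the Zc3h10 shRNA arrays, against 704, 759 and 759 on the scramble arrays. Zc3h10 shRNA replicate 2 was the lowest of its group but still above all scramble arrays. The log2 difference of 0.50 ± 0.13 missed the threshold (limma, adjusted p = 0.0539), and without that array it was 0.64 and passed (adjusted p = 0.0151). It also passed under 6 of the other alternatives, such as quantile scaling (0.55, adjusted p = 0.0331). Probe set 17514853 had 86.8, 89.2 and 75.4 intensity units with the Zc3h10 hairpin, against 99.1, 90.6 and 98.9 with scramble. It sat at −0.20 ± 0.10 and did not pass (limma, adjusted p = 0.305). The direction for Slc36a4 therefore depends on the probe set read. The probe sets of Slc38a10 lay at −0.06 ± 0.08 for the brighter, chosen one and −0.10 ± 0.09 for the dimmer one, and neither passed.

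**Figure D2:**
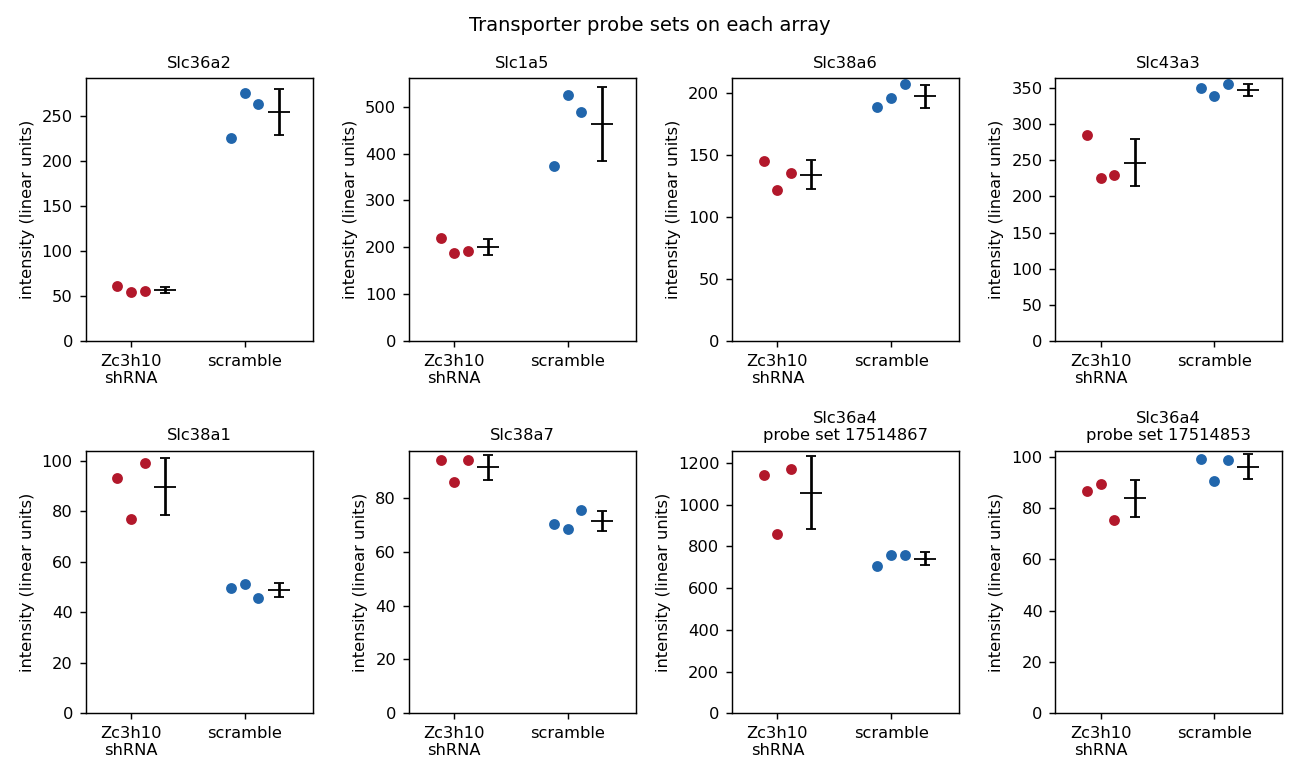
Linear intensity on each array (points, 3 Zc3h10 shRNA on the left and 3 scramble on the right of each panel) with the group mean and SD (black), for the 6 transporter genes past the threshold and both probe sets of Slc36a4. The groups do not overlap in any of the 8 panels, Slc36a2 lies at 54.7 to 60.7 against 225.7 to 275.7, and the Slc36a4 probe sets go opposite ways.

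In the Slc1a family 1 of 7 genes passed (14.3%). This is near the 12.1% of all named genes, so the count is no result about the family. Slc1a5, which exchanges glutamine and other small neutral amino acids across the plasma membrane, had 219.99, 189 and 192 intensity units on the Zc3h10 shRNA arrays, against 374, 526 and 489.8 on the scramble arrays. The groups did not overlap, and scramble replicate 1 was the lowest of its group. The log2 difference was −1.20 ± 0.14 (limma, adjusted p = 0.00197), or 43.6% of the scramble level with a 95% interval of 34.7 to 54.6%. Slc1a4, its closest relative and an exchanger of alanine, serine, cysteine and threonine, had 180.3, 186.0 and 184.3 units with the Zc3h10 hairpin, against 201, 163 and 171 with scramble. Its groups overlapped at a log2 difference of 0.05 ± 0.10, with a 95% interval of −0.19 to 0.28. The 5 glutamate and aspartate carriers gave 0 calls with limma, 0 also at an unadjusted p under 0.05. Among them Slc1a3, the glial-type glutamate carrier, had a clear signal and lay at 0.09 ± 0.09, with intensities of 628, 641 and 634 in Zc3h10 shRNA cells and 613, 547 and 634 in scramble cells. Slc1a7, a retinal glutamate carrier, lay at the background limit, and Slc1a1, Slc1a2 and Slc1a6 lay within it.

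The Slc38a family, with 11 genes, had 2 genes higher and 1 lower (27.3% called, beside 12.1% of all named genes). With so few genes this count is no result about the family. Slc38a1, a sodium-coupled carrier of glutamine, alanine and serine at the plasma membrane, had 93.2, 77.2 and 99.1 intensity units on the Zc3h10 shRNA arrays, against 49.5, 51.2 and 45.8 on the scramble arrays. All Zc3h10 shRNA arrays were above all scramble arrays, with replicate 2 the lowest of them. The log2 difference was 0.87 ± 0.12 (limma, adjusted p = 0.00313), or 183% of the scramble level with a 95% interval of 152 to 220.2%. Slc38a2, which carries much the same amino acids and is known for its induction when amino acids run short, had 1103, 1097 and 1069 units with the Zc3h10 hairpin, against 1090.2, 1110.2 and 1143 with scramble. Those groups overlapped, at a log2 difference of −0.03 ± 0.08 and a 95% interval of −0.22 to 0.16. Its sign turned to 0.02 with quantile scaling, and it did not pass there either (adjusted p = 0.939).

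Slc38a6, a member whose substrates are less well described, had 144.9, 121.6 and 135.2 intensity units in Zc3h10 shRNA cells, against 188.4, 195.5 and 207.2 in scramble cells. The groups did not overlap, and the log2 difference was −0.56 ± 0.10 (limma, adjusted p = 0.0106). Slc38a7, which exports glutamine and asparagine from the lysosome, had 94.0, 85.9 and 94.0 units with the Zc3h10 hairpin, against 70.2, 68.3 and 75.5 with scramble. Its groups did not overlap either, but at 0.36 ± 0.09 it passed narrowly (limma, adjusted p = 0.0462). Without any 1 of the 6 arrays Slc38a7 did not pass, with log2 differences of 0.33 to 0.40 and adjusted p values of 0.0713 to 0.152, nor did it with median scaling (0.0679) or the ordinary t statistic (0.0597). Slc38a9, the lysosomal arginine sensor upstream of mTORC1, was at −0.04 ± 0.09, and Slc38a10 is given above. Slc38a3, Slc38a4, Slc38a5, Slc38a8 and Slc38a11 lay within background at −0.09 to 0.15.

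The start regions of Slc38a7, Slc36a1 and Slc7a11 are printed because each holds a match to a searched motif and belongs to a lysosomal carrier or to the amino acid response. The 250 bases upstream of annotated starts were searched on both strands in the RefSeq promoter table of build GRCm38.p6, which held 42 windows of 31 of the transporter genes. Of the 6 called genes, Slc38a6 and Slc38a7 were searched, and Slc36a2, Slc1a5, Slc38a1 and Slc43a3 were not searched here. The E-box CACGTG is the core of the site read by the lysosomal regulator TFEB and by MYC. It occurred in 7 of the 42 member windows, of as many genes, and in 1978 of all 32851 windows (6.02%). The core TGATGNAA of the C/EBP-ATF response element, read by ATF4, occurred in 3 of the 42 member windows, of Slc7a11 and Slc7a7. Among all windows it occurred in 1134 (3.45%). The PPAR-RXR response element is a direct repeat of the nuclear receptor half-site with a single spacer base. It occurred in 0 of the 42 member windows and in 111 of all windows (0.338%). No motif letters overlapped in the printed windows. Capitals mark the matches, each sequence runs 5′ to 3′ on the gene's strand, and its last base is the base before the start.
Slc38a7, chr8:95853492-95853741, minus strand: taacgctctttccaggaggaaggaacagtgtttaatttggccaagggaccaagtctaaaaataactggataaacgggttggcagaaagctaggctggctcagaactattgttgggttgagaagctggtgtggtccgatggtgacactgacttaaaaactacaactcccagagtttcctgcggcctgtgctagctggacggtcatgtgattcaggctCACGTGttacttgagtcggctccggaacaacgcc
Slc36a1, chr11:55204090-55204339, plus strand: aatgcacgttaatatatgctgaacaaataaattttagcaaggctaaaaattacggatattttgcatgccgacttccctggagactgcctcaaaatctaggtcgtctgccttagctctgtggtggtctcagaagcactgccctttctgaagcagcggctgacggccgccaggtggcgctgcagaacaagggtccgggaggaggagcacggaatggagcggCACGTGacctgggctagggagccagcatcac
Slc7a11, chr3:50443614-50443863, minus strand: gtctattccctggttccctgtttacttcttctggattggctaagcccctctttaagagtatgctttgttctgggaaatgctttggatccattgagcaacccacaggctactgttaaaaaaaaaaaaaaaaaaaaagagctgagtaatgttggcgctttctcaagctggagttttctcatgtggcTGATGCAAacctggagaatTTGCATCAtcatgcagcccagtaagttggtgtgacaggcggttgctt

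The E-box began 34 bases before the start in Slc38a7 and 31 bases before it in Slc36a1. Of the 7 genes with an E-box, Slc38a7 was called, and Slc1a6, Slc1a7, Slc36a1, Slc38a5, Slc43a1 and Slc7a14 were not. The Slc7a11 window held the ATF core on both strands, beginning 66 and 47 bases before the start. Slc7a11 encodes the cystine-glutamate exchanger that supplies cysteine for glutathione. Its intensities were 9.87, 9.65 and 7.66 on the Zc3h10 shRNA arrays and 8.67, 6.22 and 7.13 on the scramble arrays, all within background, and it did not pass (limma, adjusted p = 0.296). A match is a description of these letters and no evidence of binding.

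The Slc7a and Slc3a families gave no calls. With limma, 0 of 15 Slc7a genes and 0 of 2 Slc3a genes passed, beside 12.1% of all named genes. For so few genes, 9 of the 15 Slc7a genes within background, 0 calls are no result about the families. In limma 0 of either had an unadjusted p under 0.05. The ordinary t statistic also called 0 of them after adjustment. The Slc7a differences ran from −0.17 for Slc7a7, a light subunit that exports cationic amino acids, to 0.31 for Slc7a11. Slc3a2, the heavy subunit also known as CD98 that brings most light subunits to the cell surface, had 673, 661 and 741 intensity units in Zc3h10 shRNA cells and 744, 747 and 756 in scramble cells. These groups did not overlap, with Zc3h10 shRNA replicate 3 next to the scramble arrays, but the log2 difference was only −0.12 ± 0.09, with a 95% interval of −0.32 to 0.08 (limma, adjusted p = 0.522). Its partner Slc7a5, the main light subunit for leucine and other large neutral amino acids, had 122.7, 121.7 and 109.8 units with the Zc3h10 hairpin, against 100.8, 128.0 and 104.1 with scramble, which overlapped. Slc7a6, a light subunit that exchanges cationic for neutral amino acids, was at 0.12 ± 0.09.

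The cationic carriers Slc7a1 and Slc7a2, which take up arginine and lysine, were at 0.15 ± 0.11 and 0.07 ± 0.11. Slc7a10, a serine, alanine and glycine exchanger known as a surface marker of white adipocytes, had 17.1, 25.5 and 22.4 units in Zc3h10 shRNA cells and 21.6, 20.6 and 24.3 in scramble cells, close to the background limit. Slc3a1, the heavy subunit of the renal cystine carrier, and 9 of the 15 Slc7a genes lay within background in both groups. Over all families, 17 genes above background did not pass, and their 95% intervals all lay inside 1 log2 unit of 0, with 15 of them inside 0.5. Among them Slc1a7, Slc7a7, Slc7a10 and Slc43a1 lay close to the background limit of 4.37, with scramble means of 4.39 to 4.71. For genes this dim the interval may not bound the change. Slc36a4 counts here by the brighter of its probe sets, which go opposite ways.

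**Figure D3:**
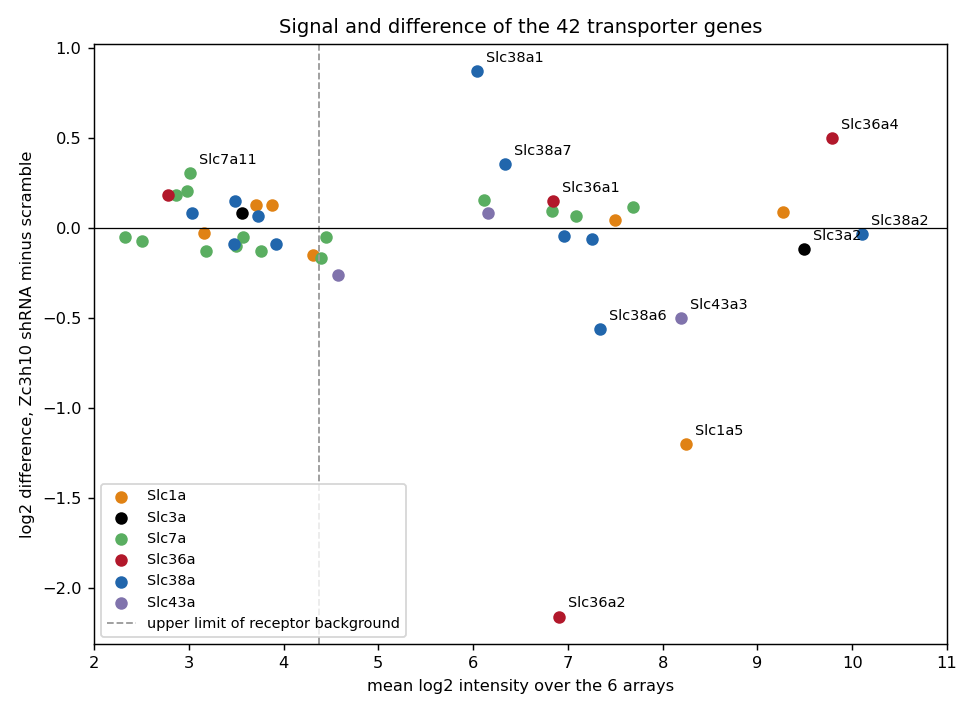
Mean log2 intensity over the 6 arrays (horizontal) against the log2 difference, Zc3h10 shRNA minus scramble (vertical), of the 42 transporter genes, coloured by family, with the background limit of 4.37 as a dashed line. The 6 called genes lie right of the line, and the genes left of it lie between −0.15 and 0.31.

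Of the 3 Slc43a genes, 1 was lower (33.3%, beside 12.1% of all named genes called). With so few genes this count is no result about the family. Slc43a3, the lower gene, is grouped with the amino acid carriers by sequence but is known to carry purine nucleobases. Its intensities were 284, 226 and 230.1 on the Zc3h10 shRNA arrays, against 349, 338 and 355 on the scramble arrays. The groups did not overlap, with Zc3h10 shRNA replicate 1 closest to scramble, and the log2 difference was −0.50 ± 0.11 (limma, adjusted p = 0.0265). Without any 1 of scramble replicates 1 to 3 or Zc3h10 shRNA replicates 2 and 3 it did not pass, with adjusted p values of 0.0736 to 0.0988, nor did it with the ordinary t statistic (0.0950). Slc43a1, a carrier of large neutral amino acids, had 21.7, 24.0 and 19.8 units with the Zc3h10 hairpin, against 29.4, 24.3 and 24.9 with scramble, and did not pass at −0.26 ± 0.12 (limma, adjusted p = 0.238). Slc43a2, a second large neutral amino acid carrier, was at 0.08 ± 0.09.

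Several of the transporter genes are neighbours on a chromosome. The 3 places shown were picked by hand and each holds a called gene. That 1 member passed at each place therefore follows from the choice and is no result about neighbouring transporters. The other members at these places did not pass. On chromosome 11 the protein-coding order is Gm2a, Slc36a3, Slc36a2, Slc36a1, Fat2. Slc36a2 at −2.16 sits between Slc36a3 at 0.19 and Slc36a1 at 0.15, while Gm2a, the gene of a lysosomal lipid-binding activator, was also lower at −0.96 ± 0.10 (limma, adjusted p = 0.00126). On chromosome 15 Slc38a1 at 0.87 is followed by Slc38a2 at −0.03 and Slc38a4 at 0.15. On chromosome 2 Slc43a1 and Slc43a3 are separated by Rtn4rl2, at 0.16 ± 0.10, and flanked by Timm10, at −0.69 ± 0.16 (adjusted p = 0.0304). The differences between neighbouring genes were not tested.

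**Figure D4:**
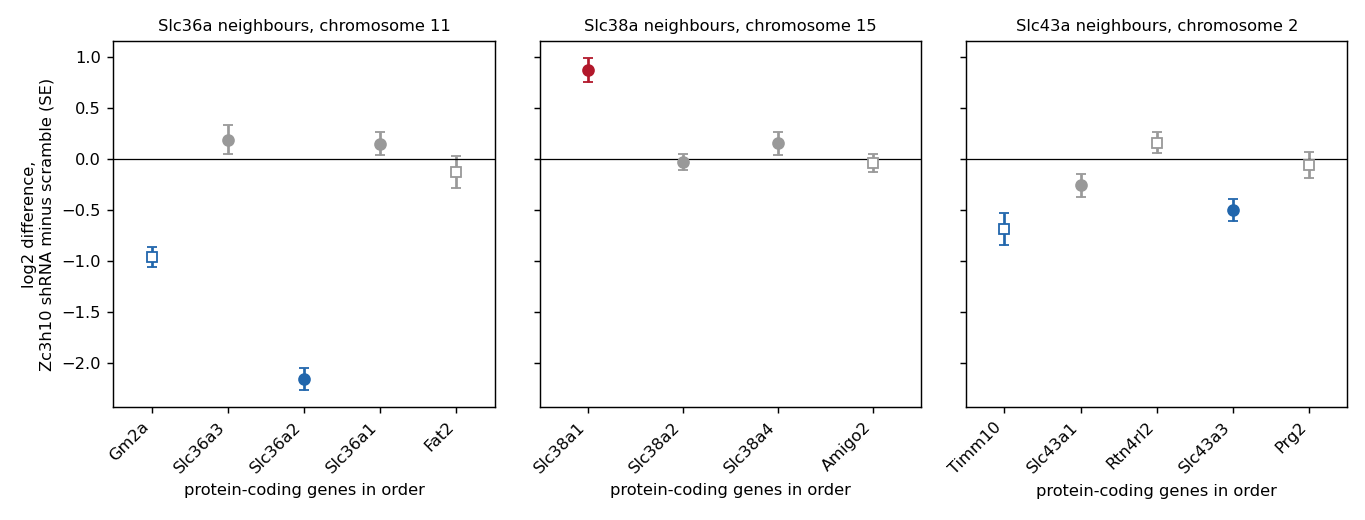
Log2 difference, Zc3h10 shRNA minus scramble, with its SE, for protein-coding genes in their order along chromosomes 11, 15 and 2, where circles are transporter genes, open squares their neighbours, red higher, blue lower and grey not past the threshold. Slc36a2 (−2.16) and Slc38a1 (0.87) stand apart from the family members beside them.

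Other genes of amino acid handling put these values in context, and their counts are to be read beside the 12.1% of all named genes called. Of 33 measured genes of other carrier families, 3 were higher and 4 lower (21.2% called, median 0.06). The list also holds the peptide carrier genes Slc15a1 to Slc15a4, so its share is not one of amino acid transporters alone. Slc25a22, a mitochondrial glutamate carrier, was at −0.73 ± 0.09, and Slc16a10, which carries aromatic amino acids, at −0.77 ± 0.13. The 3 higher genes were the peptide carrier gene Slc15a2, at 0.60 ± 0.12, and the mitochondrial aspartate-glutamate carrier genes Slc25a13 and Slc25a12. Slc25a13 was at 0.70 ± 0.13 and Slc25a12, named after its value was seen, at 0.43 ± 0.11. In glutamate, glutamine and aspartate metabolism 5 of 14 genes were lower and 3 higher (57.1% called, median −0.15). Aldh5a1, which acts in the breakdown of the glutamate product GABA, was at −1.15 ± 0.10. Glul, which makes glutamine, was at −0.80 ± 0.09, and the alanine aminotransferase genes Gpt and Gpt2 were at −1.02 ± 0.12 and −0.76 ± 0.10. The aspartate aminotransferase genes Got1 and Got2 were at 0.48 ± 0.09 and 0.55 ± 0.11.

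In branched-chain amino acid catabolism 15 of 21 genes were lower and 1 was higher (76.2% called, median −0.69). Mccc2, a carboxylase subunit of leucine breakdown, was at −1.14 ± 0.08 and Bcat1, the cytosolic aminotransferase, at 0.86 ± 0.11. Of the carriers of branched-chain amino acids in the 6 families, those picked here were Slc7a5, Slc7a8, Slc43a1 and Slc43a2. They gave 0 calls with limma and 0 at an unadjusted p under 0.05. The pick is not complete, and so few genes are no result beside the catabolism list. Slc7a8 lay within background, and Slc43a1 had an unadjusted p of 0.0534 in limma with groups that did not overlap. Of 22 genes of the amino acid response, 1 was higher and 4 lower (22.7% called, median −0.02). Its regulator Atf4 was at −0.02 ± 0.09 and its target Asns, asparagine synthetase, at 0.17 ± 0.08, and neither passed (limma, adjusted p = 0.927 and 0.268). The 4 lower genes were Vldlr, a lipoprotein receptor, Nupr1, a stress-induced regulator, Psph, an enzyme of serine synthesis, and Cth, which makes cysteine. The higher gene was Atf3, at 0.44 ± 0.10 (limma, adjusted p = 0.0340). Of 32 genes of lysosomal amino acid sensing by mTORC1, 2 were lower and 1 higher (median −0.03). That is 9.38% called, near the 12.1% of all named genes, so this count is no result about the list. Lamtor3, a subunit of the lysosomal scaffold, was at −0.52 ± 0.09.

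**Figure D5:**
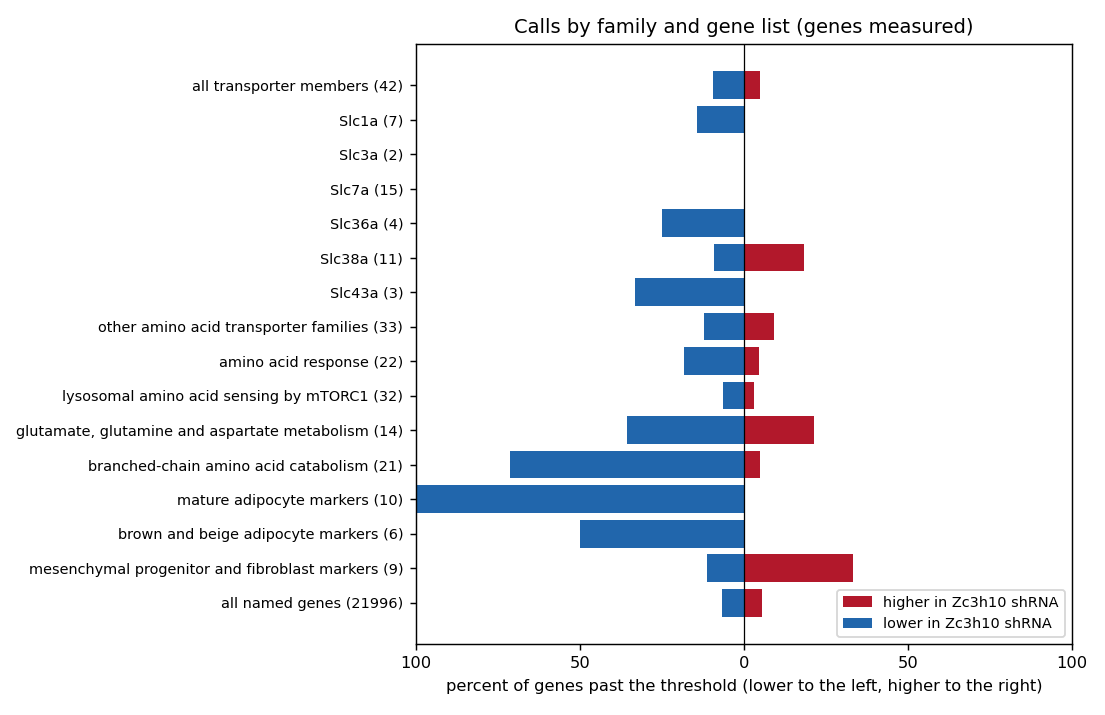
Percent of genes past the threshold in each transporter family, in the other gene lists and in all 21996 named genes, with higher in Zc3h10 shRNA to the right and lower to the left, and the number of measured genes in brackets. The 42 transporter genes (9.52% lower, 4.76% higher) lie near all named genes (6.6% and 5.51%), while most genes of branched-chain catabolism and all 10 adipocyte markers were lower.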

How the data were processed

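The deposited table gives 1 linear-scale intensity for each probe set on each array, as read from the values. Quartiles were nearly equal across arrays, and no source used here describes a scaling step. The submitters' processing notes name Partek 6.6 and Affymetrix Expression Console, with no role stated. How background was corrected, how probes were summarised and which build was used is not stated in any source used here, a limit mainly for dim genes.

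Log2 was taken with no offset, and 33079 probe sets were fitted with limma 3.58.1 in R 4.3.3 (lmFit, eBayes, two-sided, Benjamini-Hochberg). Genes passed at an adjusted p below 0.05, as the design text's cutoff of 5% states. Of the probe sets, 23043 had 1 symbol, 1740 had several and 8296 were unnamed here. The brightest probe set by mean over 6 arrays stood for a gene. All 42 members matched RefSeq by gene number (GRCm38.p6), used for names and gene order. Probe sets of paralogs can bind each other's transcripts.

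Every member could be named. Array values were given for the called members and, chosen after their values were seen, for close relatives and partners; list genes were among the 4 with the smallest p of their list, apart from Got1, Got2, Atf4, Asns, Bcat1, Cth and Slc25a12, also chosen after their values were seen; not each gene among those 4 is named. Members and lists were chosen with earlier results of these data known. The code was tested on simulated data. Alternatives covered scaling, offset, dim probe sets, prior, moderation, replicate block, probe set rule and each array left out.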

Additional observations from a re-analysis of the deposited data

How the results depend on the processing

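Slc36a2, Slc1a5 and Slc38a6 (lower) and Slc38a1 (higher) kept direction and threshold under all 16 alternatives, with the largest adjusted p values of 0.0159, 0.0410, 0.0469 and 0.0401. The count of lower transporter genes was 3 or 4 throughout. The count of higher ones was 1 with median scaling, the ordinary t statistic or the replicate block, 3 under 6 other settings, and 1 to 2 with 1 array left out. Slc38a7 was lost at adjusted p values of 0.0679, 0.0597 and 0.0815 with median scaling, the ordinary t statistic and the replicate block, and Slc43a3 with the ordinary t statistic (0.0950). Slc36a4 passed under 7 settings (0.482 to 0.644, adjusted p = 0.00964 to 0.0496) and lay at 0.149 with its probe sets averaged. Slc38a2 turned to 0.0174 with quantile scaling. The main fit called 3238 probe sets. This count was 1972 with the ordinary t statistic and 1807 to 2578 with 1 array left out. It was 3766 and 4454 without dim probe sets (lower quartile and median), 4457 with the offset and 4492 with the intensity trend. Replicate numbers were not used as pairs in the main fit. Deviations of same-numbered arrays from their group means correlated at 0.0845, −0.00464 and 0.0425. The highest correlations with an array of another number were 0.00123, 0.0613 and 0.00358. With group means of only 3 arrays these values cannot decide whether samples were paired. The replicate block called 2455 probe sets. With 3 arrays a group and no detection calls, changes of the 19 genes within background could not be judged.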

Other observations

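The opposite-strand genes that share the symbol pattern gave no call. Slc7a6os, a protein-coding gene beside Slc7a6, had 154.6, 153.1 and 176.4 intensity units on the Zc3h10 shRNA arrays, against 133.7, 135.5 and 144.3 on the scramble arrays. Its groups did not overlap, and the log2 difference was 0.23 ± 0.10 (limma, adjusted p = 0.219), while Slc7a6 was at 0.12 ± 0.09. Slc36a1os, a noncoding gene beside Slc36a2, lay within background at −0.05 ± 0.13.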
